A study of Mus musculus with 38 samples.

Results

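The genes described here encode the receptor chains of the common gamma chain cytokine family: Il2rg, the shared chain, and its partners Il2ra, Il2rb, Il15ra, Il4ra, Il21r, Il7r and Il9r. They were taken by symbol from each deposited gene table, which gave 8 members among 23700 entries (23228 distinct symbols), each listed once and at 1 locus. The series asks how STAT proteins and the lineage-defining factors shape active enhancers and transcription in mouse CD4 T helper cells. RNA was measured in 14 libraries of in vitro polarised Th1 and Th2 cells in 13 groups, of which 12 held a single library and WT Th1 held 2. Naive CD4 T cells of C57BL/6J mice were sorted by flow cytometry from spleen and lymph nodes. Cultures without a vector were wild type (WT) Th1, STAT4 KO Th1 (labelled STAT4<tm1>), T-bet KO Th1 (labelled Tbet<tm1>), WT Th2 and STAT6 KO Th2 (labelled Stat6<tm1>). They were labelled day 7 and were restimulated for 2 h through CD3 and CD28 with IL-12 (Th1) or IL-4 (Th2). Retroviral cultures came in 2 sets. In Th1 cells, a control or a T-bet vector was given to both WT and STAT4 KO, and in Th2 cells a control or a GATA3 vector to both WT and STAT6 KO. These were labelled day 5, although another label gives the Th1 vector cultures the same time and the same 2 h restimulation as the cultures without a vector. No restimulation is given for the Th2 vector cultures. The labels' protocol for T-bet describes a pMY retrovirus whose insert is followed by a truncated human NGFR, early activation on anti-CD3 and anti-CD28 with anti-IL-4, IL-12 at 10 ng/mL, and a last stage in IL-2 at 50 U/mL with IL-12. For the Th2 vector cultures, IL-2 at 50 U/mL and a polarising cytokine at 10 ng/mL are listed as well. Of the agents named, IL-2 and IL-4 signal through receptors of this family. IL-2 is listed for the vector cultures only, and IL-4 for the restimulation of Th2 cultures without a vector. The labels do not say whether libraries came from separate mice or cultures, or how many mice were pooled, so the p-values below measure only the spread between these libraries, which may be technical. In bulk RNA, fewer cells of a kind and less RNA per cell cannot be told apart.

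Cytokines of this family signal through receptors that share the common gamma chain, which carries the kinase JAK3, while the partner chain binds JAK1. The IL-2 and IL-15 receptors share Il2rb as well, and each adds a private alpha chain, Il2ra or Il15ra, that raises affinity for its cytokine. IL-4, IL-7, IL-9 and IL-21 each use 1 private chain with the shared one, and IL-4 can also signal through Il4ra paired with Il13ra1. The STAT5 proteins are the main carriers of the IL-2, IL-7, IL-9 and IL-15 signals, STAT6 of the IL-4 signal and STAT3 of the IL-21 signal. In T cells, IL-2 is known to raise Il2ra and to lower Il7r, naive and memory T cells depend on IL-7, and IL-4 is known to raise its own receptor through STAT6.

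The 8 genes lie at 6 places in the mouse genome (build mm9, coordinates of the gene as the authors' tables list them). Il2ra (chr2:11564419-11614821) and Il15ra (chr2:11627163-11655589) are neighbours on the plus strand, 12341 bases apart. Il4ra (chr7:132695796-132722988) and Il21r (chr7:132746943-132777084) are neighbours on the plus strand as well, 23954 bases apart. No other entry of the tables lies in either gap. Il2rb (chr15:78310979-78325496, minus strand) and Il7r (chr15:9435914-9459631, minus strand) share a chromosome but lie far apart. Il2rg (chrX:98459726-98463545) and Il9r (chr11:32088997-32100279), both on the minus strand, stand alone.

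The 250 bases before the listed start of 4 members are shown, because Il7r, Il2rb and Il21r carry the differences between genotypes and cultures described below and Il9r reached 1 FPKM in a single library. They were read 5′ to 3′ on the gene's strand from the NCBIM37 genome, which is build mm9, and lie before the first base of the gene as listed. Capitals mark matches, on either strand, to 5 motifs: the STAT site TTCNNNGAA (N is any base), the same arms with 4 bases between them, the T-box motif GGTGTGA, the GATA motif AGATAA and the ETS motif GGAAGT.
Il7r, chr15:9459632-9459881: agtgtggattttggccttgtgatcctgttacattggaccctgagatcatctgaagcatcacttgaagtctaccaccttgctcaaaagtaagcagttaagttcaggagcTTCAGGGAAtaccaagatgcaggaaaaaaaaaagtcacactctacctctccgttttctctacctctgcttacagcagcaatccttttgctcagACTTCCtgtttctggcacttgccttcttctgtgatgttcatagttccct
Il2rb, chr15:78325497-78325746: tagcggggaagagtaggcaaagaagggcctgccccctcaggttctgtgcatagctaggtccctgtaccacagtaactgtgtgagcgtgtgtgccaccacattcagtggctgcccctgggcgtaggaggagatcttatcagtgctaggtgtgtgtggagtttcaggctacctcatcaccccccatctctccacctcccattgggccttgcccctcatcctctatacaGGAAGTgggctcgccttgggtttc
Il21r, chr7:132746693-132746942: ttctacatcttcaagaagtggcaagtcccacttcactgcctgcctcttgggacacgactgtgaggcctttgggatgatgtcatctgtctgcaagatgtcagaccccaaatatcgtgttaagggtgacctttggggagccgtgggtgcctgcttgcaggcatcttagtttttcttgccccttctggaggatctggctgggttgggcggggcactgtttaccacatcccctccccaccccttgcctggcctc
Il9r, chr11:32100280-32100529: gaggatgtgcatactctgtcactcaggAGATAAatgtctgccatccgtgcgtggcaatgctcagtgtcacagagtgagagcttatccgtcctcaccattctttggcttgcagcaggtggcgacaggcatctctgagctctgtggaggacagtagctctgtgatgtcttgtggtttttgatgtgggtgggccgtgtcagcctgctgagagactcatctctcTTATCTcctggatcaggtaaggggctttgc
The Il7r window held a STAT site with 3 bases between its arms, TTCAGGGAA, starting 142 bases before the gene. It also held an ETS match, ACTTCC on the strand shown, starting 49 bases before the gene. The Il2rb window held 1 ETS match, starting 24 bases before the gene, and the Il21r window held none of the 5 motifs. The Il9r window held GATA matches on both strands, AGATAA starting 223 and TTATCT starting 30 bases before the gene. Among the 21561 windows that could be read, the STAT site with 3 bases between its arms was found in 6.77%, that with 4 bases in 5.21%, the T-box motif in 3.12%, the GATA motif in 8.72% and the ETS motif in 20.4%. Of the 8 members, 1 held the first STAT site (Il7r), 0 held the second, 0 held the T-box motif, 1 held the GATA motif (Il9r) and 4 held the ETS motif (Il2ra, Il2rb, Il15ra and Il7r). These matches describe letters in a 250-base window and no binding was measured here.

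Levels are in FPKM, fragments relative to transcript length and to all mapped fragments, a scale that lets genes be set side by side. The tables give no read counts, and the precision of a single value is known only through the interval that Cufflinks lists, which covers counting error. For the 7 members other than Il9r the upper bound of that interval lay 0.633% to 13.1% above the value. Pan-T genes marked every library (summed FPKM of 6 genes including Cd3e and Cd4, 525 to 1107), while most lists for other cells were low, with exceptions given below. The CD8 list summed to 1.84 to 5.65 FPKM, nearly all Cd8b1 with Cd8a at or below 0.210 FPKM, and the NK list to at most 0.194 FPKM. The myeloid list summed to 8.63 FPKM in WT Th2, of which Emr1 was 8.42 FPKM, and to at most 2.02 FPKM elsewhere, with Csf1r at or near 0. The dendritic list reached 3.35 FPKM in WT Th2 with the GATA3 vector, mostly Itgax. The regulatory T cell list, Foxp3 and Ikzf2, reached 10.8 FPKM in STAT4 KO Th1 with the control vector, mostly Foxp3. With the control vector Foxp3 was 9.32 FPKM in WT Th1, 10.5 FPKM in STAT4 KO Th1 and 8.38 FPKM in STAT6 KO Th2. Without a vector it was 2.15 FPKM in WT Th1 replicate 1, 5.51 FPKM in STAT4 KO Th1 and 4.53 FPKM in STAT6 KO Th2. Foxp3 was 0.302 FPKM or less in WT Th1 replicate 2, T-bet KO Th1 and every WT Th2 library. A list of 4 mast cell and basophil genes summed to 68.8 FPKM in WT Th2 cells with the GATA3 vector and to 45.0 FPKM in STAT6 KO Th2 cells with it, of which Mcpt8 was 59.2 and 42.7 FPKM and Cpa3 9.64 and 2.33 FPKM. Cpa3 was also 10.2 FPKM in WT Th2 without a vector, and Fcer1a and Ms4a2 were at or near 0 in every library. The part of other cells in the results was not tested. Tbx21, which encodes T-bet, was 88.4 and 153 FPKM in the WT Th1 replicates and 4.19 FPKM in T-bet KO Th1. In STAT6 KO Th2 without a vector Tbx21 was 43.7 and Ifng 135.5 FPKM, against 3.61 and 14.1 FPKM in WT Th2. Gata3 and Il4 were 14.3 and 20.45 FPKM there, against 62.1 and 513 FPKM. Ifng was 60.3 FPKM in STAT4 KO Th1, against 8326 and 3212 FPKM in the WT Th1 replicates. For the knockouts, Th1 and Th2 thus name the culture and not the marker levels. Stat6 was 34.6 FPKM in STAT6 KO and 35.6 FPKM in WT Th2 cells without a vector, so the gene's total did not separate that pair. In the vector cultures it was lower in STAT6 KO, at 36.1 against 65.9 FPKM with the control vector and 23.3 against 47.95 FPKM with the GATA3 vector. The labels do not say which part of the gene was altered. WT Th1 replicate 2 and T-bet KO Th1 stood apart from the other 12 libraries. Across genes they correlated with each other at r = 0.976 and with the other libraries at 0.682 to 0.807, while the other 12 correlated at 0.857 to 0.990 among themselves. Small RNA genes made up 20.4% and 21.7% of their summed FPKM, against 4.44% to 7.65% elsewhere. Tests of the receptor genes are therefore given with and without a term for them, and for other genes it is said where a call is lost with that term.

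Il2rg was the most evenly expressed member and Il7r the least. Over the 14 libraries the lowest, median and highest levels were 293, 376 and 488 FPKM for Il2rg, 212, 341 and 584 FPKM for Il2ra, and 81.3, 196 and 597 FPKM for Il2rb. They were 35.5, 74.0 and 176 FPKM for Il4ra, 23.8, 58.6 and 118 FPKM for Il21r, 13.3, 23.9 and 44.3 FPKM for Il15ra, and 2.16, 24.8 and 107 FPKM for Il7r. The chains of the IL-2 receptor were thus the most abundant of the family by these medians. Il15ra and Il7r had the lowest medians of the 7 tested members. Their order depended on the libraries counted, since without the 2 that stand apart the medians were 25.2 FPKM for Il15ra and 21.2 FPKM for Il7r. The highest level was 1.66 times the lowest for Il2rg, 2.75 times for Il2ra, 3.33 times for Il15ra, 4.94 times for Il4ra, 4.95 times for Il21r, 7.35 times for Il2rb and 49.7 times for Il7r. Without the 2 libraries that stand apart, these ratios were 1.66 for Il2rg, 2.09 for Il2ra and 4.40 for Il2rb, and that of Il7r did not move.

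**Figure D1:**
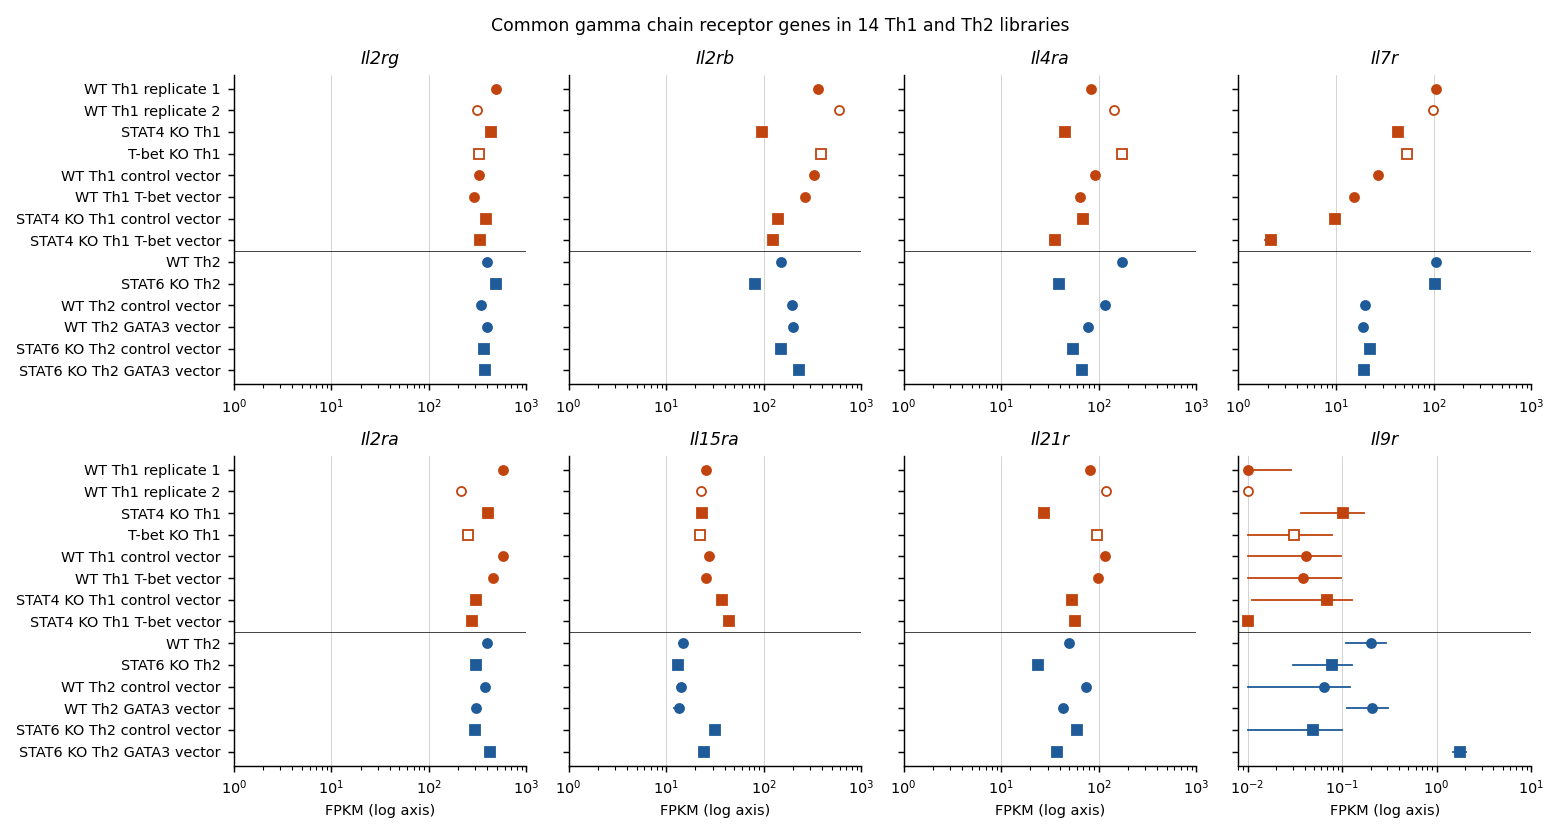
FPKM of the 8 receptor genes (log axes; the Il9r axis covers lower values) in each of 14 libraries, Th1 in orange-red above the line and Th2 in blue below it. Circles are WT, squares are knockouts, open symbols are the 2 libraries that stand apart, bars are the Cufflinks intervals, and values under 0.01 FPKM are drawn at 0.01. Il2rg stays between 293 and 488 FPKM, while Il7r runs from 2.16 to 107 FPKM.

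Il2rg, the chain common to all receptors of the family, was 484 and 316 FPKM in WT Th1 replicates 1 and 2, 433 FPKM in STAT4 KO Th1, 330 FPKM in T-bet KO Th1, 398 FPKM in WT Th2 and 488 FPKM in STAT6 KO Th2. In the vector cultures it was 325 and 293 FPKM in WT Th1 with the control and T-bet vector, 382 and 339 FPKM in STAT4 KO Th1, 342 and 396 FPKM in WT Th2 with the control and GATA3 vector, and 372 and 379 FPKM in STAT6 KO Th2. High values occurred in both lineages and in WT and knockout libraries alike. The lowest values were all in Th1 libraries, WT and knockout. They lay below the lowest Th2 level, 342 FPKM, although its Cufflinks interval overlapped that of the next library, at 339 FPKM. In the order of its levels, 7 of the 13 pairs of neighbours had overlapping Cufflinks intervals.

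Il2ra, the alpha chain of the high-affinity IL-2 receptor and a marker of T cell activation, was 571 and 212 FPKM in the WT Th1 replicates, 408 FPKM in STAT4 KO Th1, 253 FPKM in T-bet KO Th1, 392 FPKM in WT Th2 and 306 FPKM in STAT6 KO Th2. In WT Th1 with the control and T-bet vector Il2ra was 584 and 456 FPKM, and it was 303 and 280 FPKM in STAT4 KO Th1. Il2ra was 376 and 305 FPKM in WT Th2 with the control and GATA3 vector, and 299 and 426 FPKM in STAT6 KO Th2. The 3 WT Th1 libraries outside the pair that stands apart held the 3 highest values, and that pair held the 2 lowest. The WT Th1 replicates thus spanned nearly the whole range of the gene.

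Il2rb, the beta chain shared by the IL-2 and IL-15 receptors, was 358 and 597 FPKM in the WT Th1 replicates, 96.8 FPKM in STAT4 KO Th1, 389 FPKM in T-bet KO Th1, 149 FPKM in WT Th2 and 81.3 FPKM in STAT6 KO Th2. In WT Th1 with the control and T-bet vector Il2rb was 328 and 267 FPKM, and it was 140 and 125 FPKM in STAT4 KO Th1. Il2rb was 194 and 198 FPKM in WT Th2 with the control and GATA3 vector, and 152 and 232 FPKM in STAT6 KO Th2. All WT Th1 libraries and the T-bet KO library lay above every other library, and the lowest values were in the knockouts of STAT6 and STAT4 without a vector. In the order of its levels, the Cufflinks intervals of neighbours did not overlap in 11 of 13 pairs.

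Il15ra, the private chain that presents IL-15, was 25.8 and 22.9 FPKM in the WT Th1 replicates, 23.2 FPKM in STAT4 KO Th1, 22.1 FPKM in T-bet KO Th1, 14.9 FPKM in WT Th2 and 13.3 FPKM in STAT6 KO Th2. In WT Th1 with the control and T-bet vector Il15ra was 27.5 and 25.9 FPKM, and it was 37.7 and 44.3 FPKM in STAT4 KO Th1. Il15ra was 14.4 and 13.4 FPKM in WT Th2 with the control and GATA3 vector, and 32.0 and 24.7 FPKM in STAT6 KO Th2. The WT Th2 libraries were low in every culture, and the knockouts were high in the vector cultures and level with their WT libraries without a vector. In the order of its levels, 9 of 13 pairs of neighbours overlapped.

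Il4ra, the IL-4-binding chain, was 84.4 and 143 FPKM in the WT Th1 replicates, 45.5 FPKM in STAT4 KO Th1, 176 FPKM in T-bet KO Th1, 173 FPKM in WT Th2 and 39.3 FPKM in STAT6 KO Th2. In WT Th1 with the control and T-bet vector Il4ra was 92.0 and 64.9 FPKM, and it was 69.7 and 35.5 FPKM in STAT4 KO Th1. Il4ra was 116 and 78.3 FPKM in WT Th2 with the control and GATA3 vector, and 54.9 and 67.4 FPKM in STAT6 KO Th2. Its highest values were in T-bet KO Th1 and WT Th2 without a vector, and its lowest in STAT4 KO Th1 with the T-bet vector and STAT6 KO Th2 without a vector. The WT libraries of both lineages lay above the matched STAT knockout in every culture.

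Il21r, the private chain for IL-21, was 81.1 and 118 FPKM in the WT Th1 replicates, 27.3 FPKM in STAT4 KO Th1, 95.2 FPKM in T-bet KO Th1, 49.6 FPKM in WT Th2 and 23.8 FPKM in STAT6 KO Th2. In WT Th1 with the control and T-bet vector Il21r was 115 and 97.9 FPKM, and it was 53.7 and 56.7 FPKM in STAT4 KO Th1. Il21r was 74.8 and 43.2 FPKM in WT Th2 with the control and GATA3 vector, and 60.5 and 37.1 FPKM in STAT6 KO Th2. As for Il2rb, the WT Th1 and T-bet KO libraries lay above all others and the STAT knockouts without a vector were lowest.

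Il7r, the private chain for IL-7 and for the related cytokine TSLP, was 106 and 98.0 FPKM in the WT Th1 replicates, 43.6 FPKM in STAT4 KO Th1, 54.1 FPKM in T-bet KO Th1, 107 FPKM in WT Th2 and 104 FPKM in STAT6 KO Th2. In WT Th1 with the control and T-bet vector Il7r was 27.2 and 15.1 FPKM, and it was 9.82 and 2.16 FPKM in STAT4 KO Th1. Il7r was 20.02 and 18.9 FPKM in WT Th2 with the control and GATA3 vector, and 22.4 and 19.3 FPKM in STAT6 KO Th2. Every library without a vector lay above every library with one. Within each kind of Th1 culture the STAT4 KO library was the lowest, and the Th2 libraries of 1 kind of culture lay close together whatever their genotype.

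Il9r, the private chain for IL-9, was 1.78 FPKM in STAT6 KO Th2 with the GATA3 vector, the only library in which it reached 1 FPKM. The next values were 0.209 FPKM in WT Th2 with the GATA3 vector, 0.200 FPKM in WT Th2 and 0.103 FPKM in STAT4 KO Th1. In the other 10 libraries it was 0.079 FPKM or less, and it was listed at 0 in WT Th1 replicate 2 and in STAT4 KO Th1 with the T-bet vector. It did not pass the filter for the tests, and no fold change is given. The library with the highest Il9r was also the one with the highest Il9, its ligand, at 448 FPKM.

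Differences were tested with limma on log2(FPKM + 1) in 1 fit of all 14 libraries, with a Benjamini-Hochberg adjusted p under 0.05 over 11121 genes as the call. Of the 8 members 7 were tested, since Il9r did not reach 1 FPKM in 2 libraries. For genes with few FPKM this scale shrinks a difference, and the value after ± is its standard error in the fit. With 6 residual degrees of freedom, the error rests on the WT Th1 replicates and on how far the additive terms miss single libraries. It rests on the latter alone, with 5, where the 2 libraries that stand apart have a term of their own.

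Loss of STAT4, which carries the IL-12 signal in Th1 cells, went with less Il7r, Il2rb and Il21r RNA in all 3 kinds of Th1 culture. For Il7r the STAT4 KO level was 2.42-fold below WT Th1 replicate 1 without a vector, 2.77-fold below WT with the control vector and 7.01-fold below WT with the T-bet vector. For Il2rb these ratios were 3.70-fold, 2.34-fold and 2.13-fold, and for Il21r 2.98-fold, 2.14-fold and 1.73-fold. Against WT Th1 replicate 2 the ratios without a vector were 2.25-fold for Il7r, 6.17-fold for Il2rb and 4.32-fold for Il21r. The highest STAT4 KO level of Il2rb and of Il21r lay below the lowest WT Th1 level of that gene. In limma, Il7r fell by 1.58 ± 0.22 on the log2 scale (adjusted p = 0.0251) and was the 1 member of 7 called, where 0.728% of all genes tested were called. Il21r differed by -1.31 ± 0.26 (adjusted p = 0.0729) and Il2rb by -1.63 ± 0.33 (adjusted p = 0.0742) in the same limma fit. With the term for the 2 libraries, limma called 3 of 7 members, where 3.49% of all genes were called: Il7r fell by 1.66 ± 0.21 (adjusted p = 0.0246), Il21r fell by 1.13 ± 0.20 (adjusted p = 0.0432) and Il2rb fell by 1.39 ± 0.25 (adjusted p = 0.0434). In each of these 2 limma fits 4 of 7 members had an unadjusted p under 0.05. The median over the 7 members was -0.87 and that over all genes 0.04 in the fit without the term. The Il7r call was kept without WT Th1 replicate 2, T-bet KO Th1, WT Th2 or STAT6 KO Th2, and was lost without any 1 of the other 10 libraries, where the limma adjusted p ran from 0.0505 to 0.173 and the difference stayed between -1.72 and -1.25. Without WT Th1 replicate 2, the adjusted p was 0.00964 for Il7r, 0.0256 for Il21r and 0.0254 for Il2rb in limma, 3 of 7 members in a fit that called 4.58% of all genes.

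**Figure D2:**
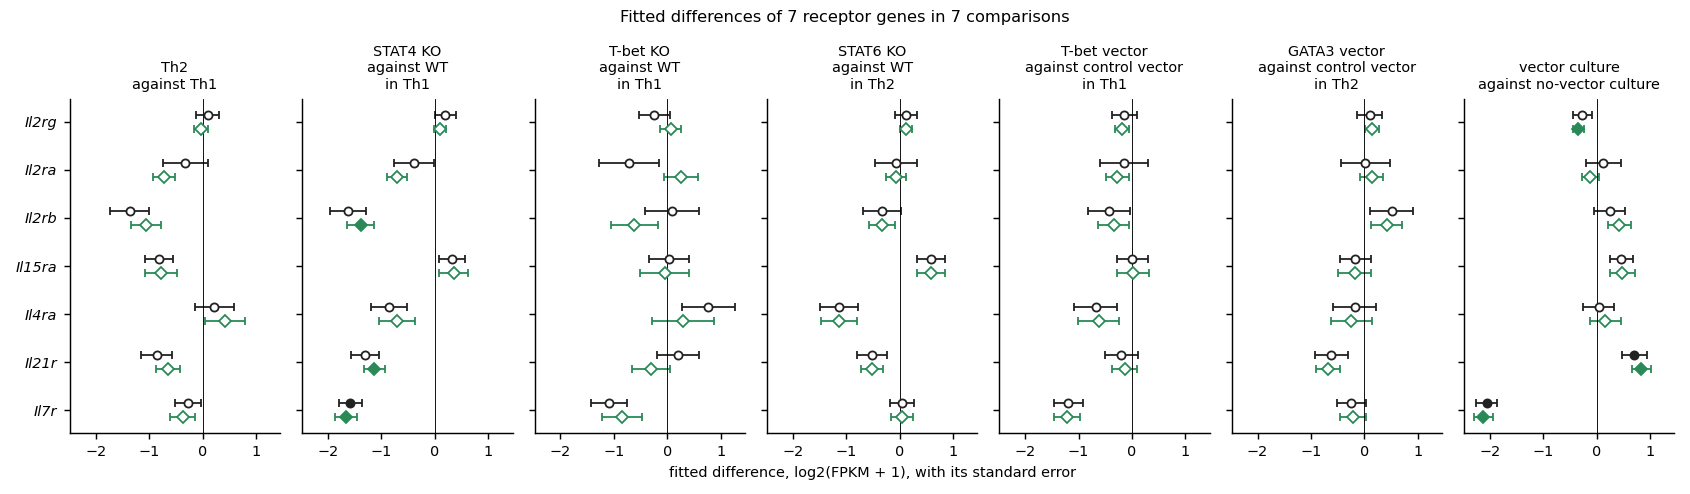
Fitted differences on the log2(FPKM + 1) scale with their standard errors for 7 receptor genes in 7 comparisons, from limma on 14 libraries. Black circles are the fit without and green diamonds the fit with a term for the 2 libraries that stand apart; filled symbols have an adjusted p under 0.05. Filled symbols lie below 0 for Il7r, Il21r and Il2rb in STAT4 KO, and in the culture comparison below 0 for Il7r and Il2rg and above 0 for Il21r.

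Within the IL-2 receptor, the STAT4 knockout held more Il2ra and more Il2rg RNA for each Il2rb RNA than WT Th1 did. The ratio of Il2ra to Il2rb was 4.21 in STAT4 KO Th1 without a vector, against 1.60 and 0.355 in the WT Th1 replicates. In the vector cultures it was 2.16 and 2.24 in STAT4 KO Th1 with the control and T-bet vector, against 1.78 and 1.71 in WT Th1. The ratio of Il2rg to Il2rb was 4.47, 2.72 and 2.71 in the STAT4 KO libraries without a vector, with the control vector and with the T-bet vector. In WT Th1 it was 1.35 and 0.528 without a vector and 0.991 and 1.10 with the control and T-bet vector. For both ratios all 3 STAT4 KO libraries lay above all 4 WT Th1 libraries. High ratios were not particular to STAT4 KO. Without a vector, Il2ra to Il2rb and Il2rg to Il2rb were 3.76 and 6.00 in STAT6 KO Th2 and 2.62 and 2.67 in WT Th2. In the Th2 vector cultures they were 1.54 to 1.97 and 1.64 to 2.44. These ratios are a description and share their denominator with the Il2rb result.

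Between the lineages, the largest fitted difference of a member was that of Il2rb. WT Th2 was 2.40-fold below WT Th1 replicate 1 and 4.00-fold below replicate 2 without a vector, and 1.69-fold below WT Th1 with the control vector. Il21r and Il15ra were lower in WT Th2 as well, by 1.64-fold and 1.73-fold against replicate 1 and by 1.54-fold and 1.92-fold with the control vector. Il4ra ran the other way, 2.05-fold higher in WT Th2 than in WT Th1 replicate 1, 1.21-fold higher than in replicate 2 and 1.26-fold higher with the control vector. The limma fit gave Il2rb a difference of -1.36 ± 0.37 (adjusted p = 0.0857), or -1.07 ± 0.28 (adjusted p = 0.0730) with the term for the 2 libraries. Limma called 0 of 7 members with or without that term (3 and 4 had an unadjusted p under 0.05), where 3.21% of all genes were called without it and 6.83% with it. Without WT Th1 replicate 2 the Il2rb difference was -1.07 and its limma adjusted p 0.0478, the 1 call in this comparison when a library was left out, in a fit that called 8.62% of all genes.

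STAT6 carries the IL-4 signal, and Il4ra showed the largest fitted difference between STAT6 KO and WT Th2. The STAT6 KO level was 4.41-fold below WT without a vector, 2.12-fold below it with the control vector and 1.16-fold below it with the GATA3 vector. Il4ra was lower in STAT4 KO Th1 than in WT Th1 as well. It was 1.855-fold below replicate 1 and 3.13-fold below replicate 2 without a vector. With the control and T-bet vector it was 1.32-fold and 1.83-fold below WT. Il15ra ran the other way in the vector cultures, where the STAT6 KO level was 2.23-fold above WT with the control vector and 1.84-fold above it with the GATA3 vector. Without a vector Il15ra was 13.3 FPKM in STAT6 KO and 14.9 FPKM in WT, with overlapping Cufflinks intervals. Il2rb and Il21r were 1.84-fold and 2.08-fold lower in STAT6 KO without a vector and 1.28-fold and 1.24-fold lower with the control vector. With the GATA3 vector Il2rb was 1.17-fold higher and Il21r 1.16-fold lower. Il7r was within 1.12-fold of WT in all 3 pairs. Limma gave Il4ra a difference of -1.13 ± 0.35 (adjusted p = 0.222), or adjusted p = 0.126 with the term for the 2 libraries. It called 0 of 7 members in both fits (2 had an unadjusted p under 0.05 in each), where 0.962% of all genes were called without the term and 2.71% with it. Leaving out 1 library at a time moved the Il4ra difference between -1.59 and -0.75, and none of these fits called it.

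**Figure D3:**
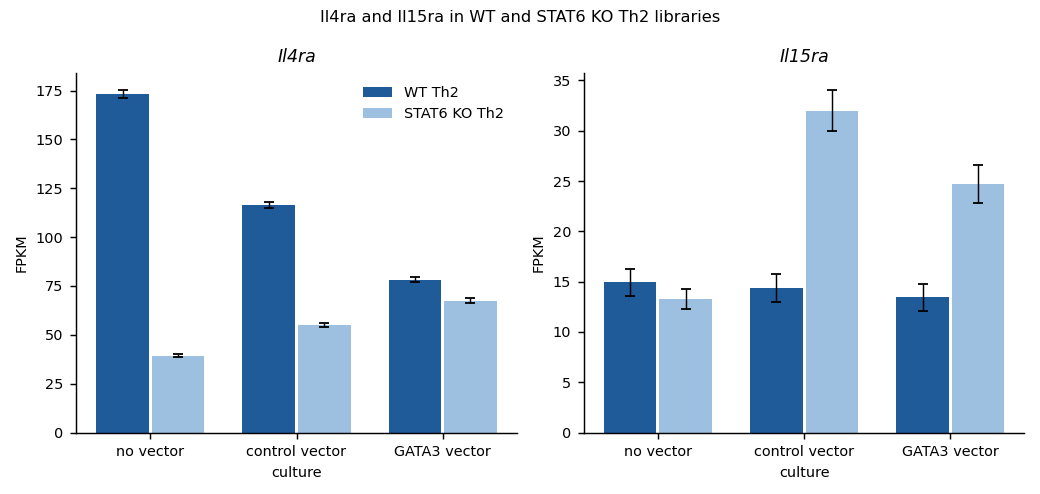
FPKM of Il4ra and Il15ra in WT (dark) and STAT6 KO (light) Th2 libraries by culture, 1 library per bar, with Cufflinks intervals that cover counting error only. Il4ra is lower in STAT6 KO in each culture, from 39.3 against 173 FPKM without a vector to 67.4 against 78.3 FPKM with the GATA3 vector, and Il15ra is higher in STAT6 KO in the 2 vector cultures.

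T-bet KO Th1 was 1 library, and it stood apart from most others together with WT Th1 replicate 2. Against that replicate its Il7r was 1.81-fold lower, its Il2rb 1.53-fold lower and its Il4ra 1.23-fold higher. Against WT Th1 replicate 1 its Il7r was 1.96-fold lower, its Il2ra 2.25-fold lower and its Il4ra 2.08-fold higher, while Il2rb was 1.09-fold higher. Il2ra was 1.19-fold higher than in replicate 2, so that its direction depended on the replicate. Limma gave Il7r a difference of -1.09 ± 0.33 (adjusted p = 0.333), and -0.85 ± 0.37 (adjusted p = 0.416) with the term, where the comparison is of 1 library with 1. Limma called 0 of 7 members with or without the term (1 and 0 had an unadjusted p under 0.05), where 0.018% of all genes were called without it and 0.881% with it. Without WT Th1 replicate 2, limma called Il7r (-1.23, adjusted p = 0.0131) and Il2ra (-1.24, adjusted p = 0.0096). That is 2 of 7 members, a smaller share than the 47.7% of all genes called in that fit, and nothing about the members is read from it.

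Under ectopic T-bet the member with the largest fitted difference was again Il7r. It was 1.80-fold lower than with the control vector in WT Th1 (15.1 against 27.2 FPKM) and 4.55-fold lower in STAT4 KO Th1 (2.16 against 9.82 FPKM). Il4ra was 1.42-fold and 1.96-fold lower in the same pairs. The limma difference for Il7r was -1.19 ± 0.27 with an unadjusted p of 0.00168 and an adjusted p of 0.9999, and limma called no gene of the 11121 in this comparison (0%), or 2 genes with the term (0.018%). Of the 7 members 0 were called in either fit and 1 had an unadjusted p under 0.05. In the fit with interactions, the term for STAT4 KO together with the T-bet vector was -1.10 ± 0.39 for Il7r (limma adjusted p = 0.999).

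With the GATA3 vector, Il21r was lower than with the control vector in both genotypes, while Il4ra and Il2ra differed in opposite directions. Il21r was 1.73-fold lower than with the control vector in WT Th2 and 1.63-fold lower in STAT6 KO Th2. Il4ra was 1.49-fold lower in WT Th2 and 1.23-fold higher in STAT6 KO Th2, and Il2ra was 1.24-fold lower and 1.43-fold higher. Limma called 0 of 7 members with or without the term (0 and 1 had an unadjusted p under 0.05), where 1.05% of all genes were called without it and 2.9% with it. Il9, the ligand of Il9r, rose by 7.44 ± 0.54 on the log2 scale (limma adjusted p = 0.000451), from 3.28 to 229 FPKM in WT and from 0.162 to 448 FPKM in STAT6 KO Th2.

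Vector cultures differed from cultures without a vector most in Il7r. With the control vector it was 3.89-fold below WT Th1 replicate 1, 3.61-fold below replicate 2, 4.44-fold below the culture without a vector in STAT4 KO Th1, 5.36-fold below it in WT Th2 and 4.63-fold below it in STAT6 KO Th2. Il21r was higher with the control vector, 1.42-fold over WT Th1 replicate 1, 1.97-fold in STAT4 KO Th1, 1.51-fold in WT Th2 and 2.54-fold in STAT6 KO Th2, though not against replicate 2 (115 and 118 FPKM). In limma, Il7r fell by 2.06 ± 0.19 (adjusted p = 0.000488) and Il21r rose by 0.71 ± 0.23 (adjusted p = 0.0451). These were 2 calls among 7 members, where 31.5% of all genes were called in this comparison, so that the share of members called lies near that of all genes. With the term, Il7r fell by 2.12 ± 0.18 (adjusted p = 0.000314), Il21r rose by 0.84 ± 0.18 (adjusted p = 0.00812) and Il2rg fell by 0.34 ± 0.10 (adjusted p = 0.0283) in limma, 3 of 7 members where 51% of all genes were called. The Il7r call was kept when any 1 library was left out, with differences between -2.17 and -1.98. The Il21r call was kept without WT Th1 replicate 2, T-bet KO Th1 or either T-bet vector library and lost without any 1 of the other 10, with limma adjusted p up to 0.139. Without the term the limma difference of Il2rg was -0.27 ± 0.17 (adjusted p = 0.265). After quantile normalization it had the opposite sign in limma, at 0.21 (adjusted p = 0.543). The median of all genes in this comparison was 0.16 on the log2 scale as deposited and 0.01 after quantile normalization, so a value near 0.16 is no difference from the other genes. Retrovirus, labelled day and, for Th2, the label of restimulation all go with this comparison and cannot be told apart. IL-2 in the medium is listed for the vector cultures only, and whether the other cultures held it is not known here.

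**Figure D4:**
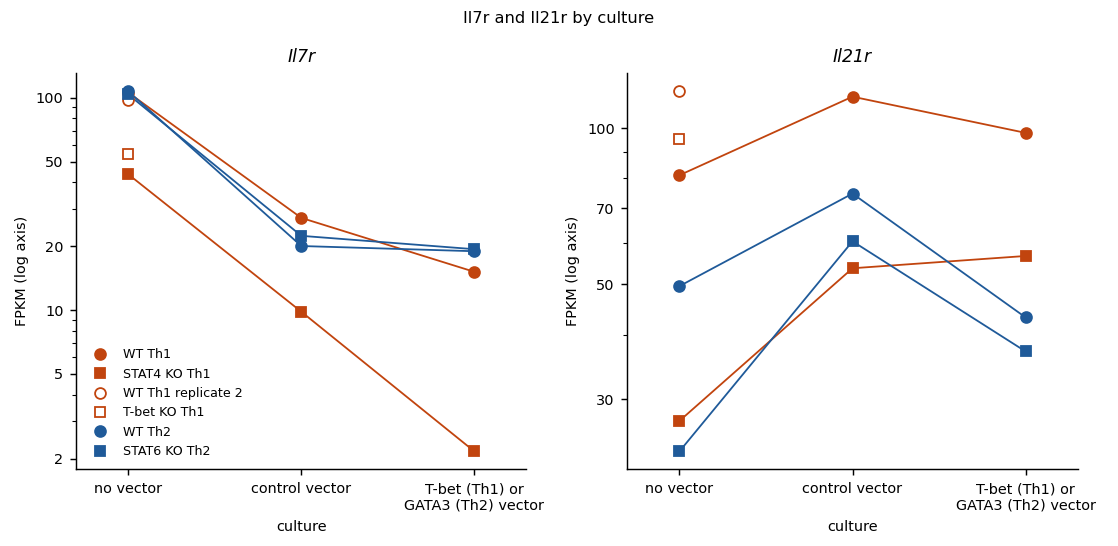
FPKM of Il7r and Il21r (log axes) by kind of culture, Th1 in orange-red and Th2 in blue, circles WT, squares knockouts, open symbols the 2 libraries that stand apart. Lines join libraries of 1 genotype, starting from WT Th1 replicate 1 for WT Th1. Il7r is 43.6 to 107 FPKM without a vector and 2.16 to 27.2 FPKM with one, and its STAT4 KO Th1 line runs below the others throughout.

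Pairs of members ranged from varying together to varying in opposite ways. Over the 12 libraries other than the 2 that stand apart, log2(FPKM + 1) of Il2rb and Il21r correlated at r = 0.793, and at 0.841 over all 14. Il2ra and Il2rb correlated at 0.743 over the 12 and at 0.0253 over the 14, since the 2 libraries with the highest Il2rb had the lowest Il2ra. The neighbours Il2ra and Il15ra correlated at -0.0114 over the 12 libraries, and at 0.00191 over the 14. The neighbours Il4ra and Il21r correlated at 0.425 over the 12 and at 0.573 over the 14. Il2rg and Il21r ran opposite ways, at -0.644 over the 12 and -0.711 over the 14. These correlations describe 21 pairs of members over libraries that share genotypes, cultures and scaling, and they carry no test.

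**Figure D5:**
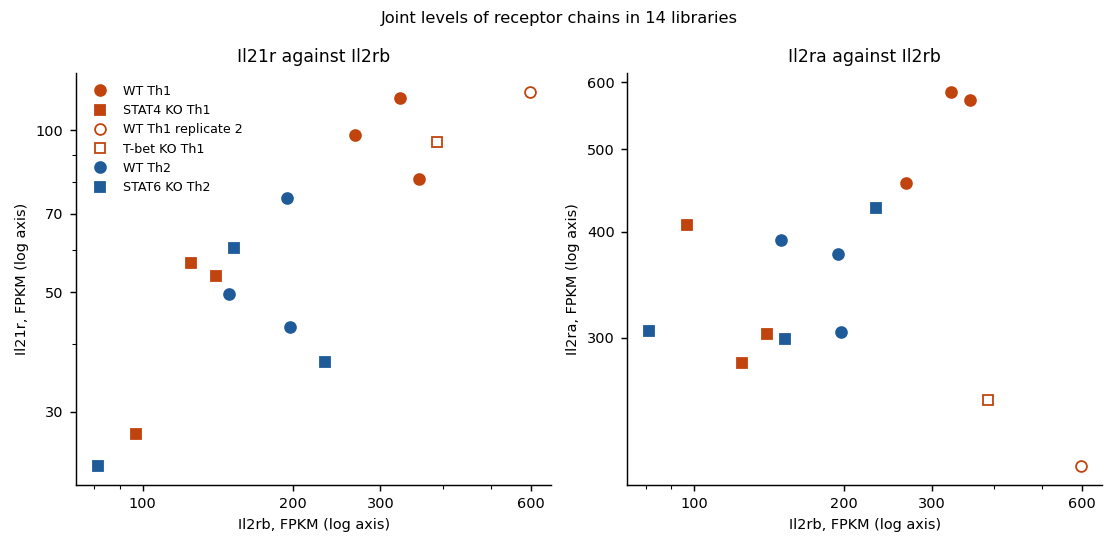
Il21r against Il2rb and Il2ra against Il2rb, in FPKM on log axes, 1 point per library; orange-red Th1, blue Th2, circles WT, squares knockouts, open symbols the 2 libraries that stand apart. Il21r is higher where Il2rb is higher (r = 0.841 over 14), while the 2 open symbols have the highest Il2rb and the lowest Il2ra.

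For each tested member, the genes whose pattern was most like it were found by the Pearson correlation of log2(FPKM + 1) over the 12 libraries, among 8827 genes that reached 5 FPKM. For Il2rb these were Junb (r = 0.960), an AP-1 transcription factor gene, Spty2d1 (0.957) and Nlgn2 (0.948). For Il21r they were Stx11 (0.953), Plagl2 (0.930) and Itpk1 (0.922), and for Il7r 4932438A13Rik (0.973), Epc2 (0.947) and Gm2a (0.945). For Il4ra they were Ccr4 (0.910), a chemokine receptor gene of Th2 cells, Pmvk (0.904) and Gm885 (0.897). For Il2ra they were Eif4e3 (0.956), Eps8 (0.947) and Arhgef10 (0.924), for Il15ra Slc9a8 (0.957), Elk3 (0.933) and Snx9 (0.919), and for Il2rg Calcoco1 (0.908), Bcas3 (0.906) and Tk2 (0.906). Over all 14 libraries the first place changed for 6 of the 7 members and stayed for Il21r (Stx11, 0.957). With 12 libraries and so many genes, correlations of this size are a description only.

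Of 8 genes for ligands of receptors that hold a member, 5 were expressed enough to be tested. The 8 include Il13 and Tslp, whose products use Il4ra or Il7r without the common gamma chain. Il2 was high in all libraries, from 341 FPKM in WT Th2 to 3765 FPKM in STAT4 KO Th1, and in each culture it was higher in the STAT knockout than in WT. Il4 rose in Th2 by 4.69 ± 1.02 (limma adjusted p = 0.0476), the 1 ligand called between the lineages, and was not called with the term for the 2 libraries. Between the lineages 3.21% of all genes were called without the term and 6.83% with it. Il21 fell in the vector cultures by 1.98 ± 0.55 (limma adjusted p = 0.0261), where its receptor rose and 31.5% of all genes were called. A link between Il21 and its receptor was not tested. Il7 and Il15 stayed below 1 FPKM in every library, and Tslp did too.

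Of the chains that can pair with members in other receptors, Il13ra1 stayed at or below 0.492 FPKM and Il13ra2 at or below 0.0215 FPKM in every library. Crlf2, which forms the TSLP receptor with Il7r, was 117 and 120 FPKM in the 2 libraries that stand apart and 22.7 to 39.8 FPKM in the other 12. It was the 1 tested gene of this list of 3 and limma called it in 0 of the 7 comparisons with or without the term, with an unadjusted p under 0.05 in 0.

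Of the 6 kinase and STAT genes 5 were tested, since Stat3 had failed estimates in the 2 libraries that stand apart. Limma called 0 of them in the 6 comparisons of lineage, knockout and vector, with or without the term for the 2 libraries. Of all genes, 0% to 3.21% were called in these comparisons without the term and 0.018% to 6.83% with it. Without the term, an unadjusted p under 0.05 was found for 3 of the 5 in the T-bet knockout, 2 in the STAT6 knockout and 0 in the others. In the culture comparison Stat5a rose by 2.63 ± 0.23 (adjusted p = 0.000394) and Stat5b by 1.21 ± 0.19 (adjusted p = 0.00237) in limma, from 12.4 to 85.8 FPKM without a vector to 81.0 to 182 FPKM with one for Stat5a, ranges that overlap. These were 2 of the 5 tested, where 31.5% of all genes were called, so that the share lies near that of all genes. With the term 2 rose and 1 fell, where 51% of all genes were called. Il7r fell in the same cultures, and a link to it was not tested. Jak3, whose product binds the common gamma chain, was 180 and 145 FPKM in the 2 libraries that stand apart and 31.8 to 72.2 FPKM in the other 12; Jak3, like Il2 and Crlf2 above, was singled out after its values were seen.

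Among 10 targets and feedback genes of these signals, 9 were tested, since Myc had failed estimates in the same 2 libraries. In the STAT4 knockout Pim2, a survival kinase gene, fell by 1.46 ± 0.22 (limma adjusted p = 0.0297), 1 of the 9 called there, against 2 of the 9 with the term. Of all genes, 0.728% were called without the term and 3.49% with it. In Th2 cells Pim2 fell by 1.71 ± 0.25 (adjusted p = 0.00934) and Pim1 fell by 1.05 ± 0.23 (adjusted p = 0.0479) in limma, 2 of the 9, where 3.21% of all genes were called. In vector cultures Ccnd2, a cyclin gene, rose by 0.99 ± 0.17 (adjusted p = 0.00341) and Bcl2, which protects against cell death, fell by 0.88 ± 0.24 (adjusted p = 0.0219) in limma. In that comparison 31.5% of all genes were called. The median over the 9 was -0.63 in the STAT4 knockout, where that of the 7 receptor genes was -0.87 and that of all genes 0.04. Limma called 0 genes of this list for the T-bet KO, the STAT6 KO, the T-bet vector or the GATA3 vector, with or without the term. In that order, 0.018%, 0.962%, 0% and 1.05% of all genes were called without the term, and 0.881%, 2.71%, 0.018% and 2.9% with it. Without it there were 0, 1, 0 and 2 at an unadjusted p under 0.05, in that order.

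Of 6 transcription factor genes known to act on these receptor genes, all were tested. Eomes, a T-box factor that acts on Il2rb, fell by 1.56 ± 0.25 (limma adjusted p = 0.0365) in the STAT4 knockout and fell by 1.31 ± 0.28 (adjusted p = 0.0446) in Th2 cells, a call that was lost with the term for the 2 libraries (limma adjusted p = 0.0582), although it stayed at or below 6.35 FPKM outside T-bet KO Th1, where it was 17.1 FPKM. Runx3, another factor of Th1 cells, fell by 2.55 ± 0.46 (limma adjusted p = 0.0237) in Th2 cells, where 2 of the 6 were called without and 1 with the term. Of all genes, 3.21% were called in Th2 cells without the term and 6.83% with it. In the STAT4 knockout the share of all genes was 0.728% without the term. Runx1 rose by 0.63 ± 0.20 (limma adjusted p = 0.0421) in vector cultures, where 31.5% of all genes were called. 

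Cytokine receptors of other families, measured for comparison, held 15 tested genes. In the STAT4 knockout 3 of them were called lower in limma: Il12rb2, the IL-12-specific chain (-3.74 ± 0.30, adjusted p = 0.00421), Il18r1 (-1.71 ± 0.26, adjusted p = 0.0297) and Il10ra (-1.50 ± 0.22, adjusted p = 0.0297). In Th2 cells limma called Il12rb2 (-5.50 ± 0.33) and Il18r1 (-4.71 ± 0.29) lower, each at an adjusted p of 0.000176, and Il6st as well (-1.43 ± 0.28, adjusted p = 0.0302), 3 of the 15 without and 5 with the term. Of all genes, 3.21% were called there without the term and 6.83% with it. Il18r1 rose by 2.96 ± 0.28 (limma adjusted p = 0.00378) in the STAT6 knockout, the 1 gene of 15 called there (2 with the term). In that comparison 0.962% of all genes were called, or 2.71% with the term. Il1r1 rose by 3.18 ± 0.39 (limma adjusted p = 0.00731) with the GATA3 vector, where 1.05% of all genes were called, or 2.9% with the term. In vector cultures 5 of the 15 fell in limma, among them Il6ra (-1.30 ± 0.19, adjusted p = 0.00182) and Il10ra (-1.30 ± 0.20, adjusted p = 0.00208), and 0 rose, where 31.5% of all genes were called, so that the share of the list lies near that of all genes. With the term 6 fell and 1 rose, where 51% of all genes were called. The shares called in the STAT4 knockout were 1 of 7 receptor genes of the common gamma chain family and 3 of 15 of the other families, or 3 of 7 and 5 of 15 with the term, and the difference between these shares was not tested. Of all genes, 0.728% were called there without the term and 3.49% with it.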

How the data were processed

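RNA from 14 libraries was sequenced as single reads on an Illumina HiSeq after TruSeq preparation, per the labels' protocols. The deposited values are FPKM per gene with their intervals in Cufflinks tracking tables, per the file headers; TopHat, Cufflinks and build mm9 are named in the submitters' processing notes, with no versions. Neither read counts nor the level of the interval is given in those tables, so depth is known only through the intervals. The 24 chromatin samples of the series were not analysed here.

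Genes with a failed estimate in any library (118) were left out of the tests. Symbols listed at several loci (241) stayed in the fit as separate entries and are not named. The 11121 entries that reached 1 FPKM in 2 or more libraries were fitted with limma 3.58.1 in R 4.3.3 (lmFit, eBayes with trend) on log2(FPKM + 1) with 7 additive terms: lineage, culture with any vector, loss of STAT4, of STAT6 or of T-bet, and ectopic T-bet or GATA3. P-values were adjusted by Benjamini-Hochberg over all genes tested and called under 0.05. The fit was tested on simulated data. Tables were handled in Python 3.11.15 with pandas 2.3.3. Alternatives were the pseudocount, the filter, the scaling, a term for the 2 libraries that stand apart, interactions, and each library left out, 22 settings in all. The members and gene lists were chosen with earlier results of these data known. Receptor genes were named with values in every library; a fitted difference was printed where called with or without the term, or where its size was 1 or more on the log2 scale. Genes of the other lists were named where called, and those most like a member by the 3 highest correlations.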

Additional observations from a re-analysis of the deposited data

Results flagged for a closer look

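With the GATA3 vector against the control vector in Th2 cells, Il4ra and Il2ra differed in opposite directions in WT and STAT6 KO. For Il4ra the log2 difference was -0.57 in WT and 0.29 in STAT6 KO, a gap of -0.856. For Il2ra it was -0.30 in WT and 0.51 in STAT6 KO, a gap of -0.813. These gaps are WT minus STAT6 KO. Each direction rests on 1 pair of libraries. The fitted term given next is STAT6 KO minus WT, hence its opposite sign. That term also draws on the STAT6 KO and WT pair without a vector, so its size need not equal the gap. As a term for STAT6 KO together with the GATA3 vector, limma gave 1.38 ± 0.70 for Il4ra and 0.83 ± 0.92 for Il2ra, with an adjusted p of 1 for each.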

How the results depend on the processing

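Of the recomputed differences of named members, 184 kept their direction and their side of the threshold, 24 kept their direction and lost the call, 10 kept it and gained the call, and 1 took the opposite sign: Il2rg between vector and no-vector cultures, 0.214 after quantile normalization. For the STAT4 knockout the number of members called was 0 without a filter (0.0806% of all genes called) and 3 after quantile normalization (0.8%). It was 3 with the term for the 2 libraries that stand apart (3.49%) and 0 with interactions (0.162%). When 1 library was left out it was 0 to 3, with 0.018% to 4.58% of all genes called. For the T-bet knockout it was 0 to 2 when 1 library was left out, and for Th2 against Th1 0 to 1. The 2 and the 1 came from the fit without WT Th1 replicate 2, which called 47.7% and 8.62% of all genes in these comparisons. For the culture comparison the number was 1 without a filter (16.3% of all genes called) and 1 with interactions (19.5%). With 1 library left out it was 1 to 3, where 18.6% to 53.3% of all genes were called. The 53.3% was without WT Th1 replicate 2. Without a filter, the limma adjusted p of Il7r in the STAT4 knockout was 0.0781 and that of Il21r in vector cultures 0.0847; more genes were then tested. Where leaving out a library left a group empty, the comparison rested on the other cultures and the shared spread, and without T-bet KO Th1 its own comparison gave no value. No paired analysis was possible because only WT Th1 has 2 libraries, so no 2 groups share more than 1 replicate number. The pairing meant here is by replicate number. Libraries were matched by culture or by genotype for the fold differences above, and the fit held a term for culture with any vector. Depth limits Il9r, whose Cufflinks interval reached from 15.6% to 245% above its value where that could be computed.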
